A study of Homo sapiens
Mus musculus with 2 samples.

Results

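Genes of the MHC class II pathway and the invariant chain were examined in single-cell libraries of a mixture of lymphocyte cell lines. The set of 8 genes was chosen by identifier, and 29259 genes had a row in either count table. It comprised 6 mouse genes, namely H2-Aa (mm10_ENSMUSG00000036594), H2-Ab1 (mm10_ENSMUSG00000073421), H2-Eb1 (mm10_ENSMUSG00000060586), H2-DMa (mm10_ENSMUSG00000037649), Cd74 (mm10_ENSMUSG00000024610) and Ciita (mm10_ENSMUSG00000022504), and 2 human genes, HLA-DRA (hg19_ENSG00000204287) and CD74 (hg19_ENSG00000019582). Of these, 5 had a row in the count tables, all of them mouse. H2-Ab1, HLA-DRA and human CD74 had no row in either table and were counted as 0 UMIs. A UMI, or unique molecular identifier, is a random tag that lets PCR copies of a transcript be counted once.

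MHC class II molecules are pairs of an alpha and a beta chain that display peptides from the endocytic pathway to CD4+ T cells. The invariant chain, encoded by Cd74, assembles with new class II pairs, fills their groove and directs them to endosomes, where H2-DM (HLA-DM in human cells) helps exchange its remnant for a peptide. Transcription of these genes depends on the transactivator encoded by Ciita. B cells in general express class II constitutively, though this was not established for the B cell line used here. Mouse T cells generally lack class II, whereas activated human T cells can express HLA-DR.

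The cells were Jurkat and TALL104, which are human T cell lines, EL4, a mouse T cell line, and IVA12, a mouse B cell line. They were mixed 1:1:1:1, and the sample labels named no treatment. The study's methods state that TALL104 was cultured with IL-2. The mixture was encapsulated in droplets with the Dolomite system and processed by Drop-seq, which counts the 3′ ends of transcripts. Its concentration was 150 cells per µl in 1 library and 300 cells per µl in the other. Each line is a single established line, no library held a line on its own, and each loading concentration had 1 library. In all, 2398956 UMIs in 2000 barcodes were counted in the former and 8707135 UMIs in 4000 barcodes in the latter. Only 1 barcode sequence occurred in both tables, and 0 among barcodes of 1000 or more UMIs. All 8 genes together had 174 UMIs, so every level below except that of Cd74 rests on few molecules.

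Levels were read across classes of barcodes. Cells were barcodes with at least 1000 UMIs, of which at least 90% were of 1 species. Human cells numbered 87 and 318 in the libraries at 150 and 300 cells per µl, in that order. Mouse cells fell on both sides of the first principal component of their expression, computed with the class II members left out. The larger group, mouse A, had 50 and 389 cells with a median of 10882 and 7474 UMIs, and the smaller, mouse B, had 35 and 296 cells with a median of 13629 and 6588 UMIs. The groups were not checked against markers of EL4 and IVA12, since the gene identifiers did not match the gene table at hand. They therefore keep these neutral names, and no line is assigned to them. Human-rich low-UMI barcodes had at least 300 and under 1000 UMIs, of which at least 50% were human, and numbered 51 and 82. Mouse-rich low-UMI barcodes in the same range numbered 1124 and 2755.

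Cd74 was the most frequently detected member, with 127 of the 174 UMIs. Of its 101 UMIs in mouse cells, 99 lay in mouse B and 2 in mouse A, and 21 more lay in mouse-rich low-UMI barcodes, 4 in mixed barcodes and 1 in a human cell. In mouse B it gave 22 UMIs at 150 cells per µl, or 47.8 UMIs per 1000000 mouse UMIs (CPM; 95% Poisson interval 29.9 to 72.3), and 77 UMIs at 300 cells per µl, or 33.0 CPM (26.0 to 41.2). In mouse A it gave 0 UMIs at 150 cells per µl, which allows up to 5.0 CPM (3 counts of the total), and 2 UMIs at 300 cells per µl, or 0.63 CPM (0.076 to 2.27). Both mouse B sums therefore lay above both mouse A sums, and their intervals did not overlap in either library. These intervals and limits cover counting error only. At 150 cells per µl the Cd74 level in mouse B was 9.55 times the limit in mouse A, a ratio that leaves out counting error in mouse B. At 300 cells per µl Cd74 was 52.4-fold higher in mouse B than in mouse A (exact conditional interval 14.0 to 441).

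Across both libraries the Cd74 log2 fold change of mouse B over mouse A was 5.85 ± 0.58 (SE), with an adjusted p of 5.55e-23 in edgeR's quasi-likelihood test on 4 class sums with the library as a block. Of 8928 mouse genes tested, 56.8% were called in either direction at an adjusted p under 0.05, and 27.8% were called higher in mouse B. With DESeq2, 1939 genes were called, among them Cd74 (adjusted p = 7.14e-05). A call was thus common in this comparison, and with edgeR Cd74 ranked 207 from the top by log2 fold change. The groups were drawn from the same cells. With the library as a block, the p-value rests on the spread left in the 4 sums, with variance information shared across genes. It does not measure the spread between cultures, and the 2 libraries differed in loading concentration. Cd74 was the only member to enter this test, 1 of 8, and it passed the filter on low counts through its UMIs in mouse B alone. The filter and the call are therefore not independent. In edgeR without that filter the adjusted p of Cd74 was 3.26e-25.

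**Figure D1:**
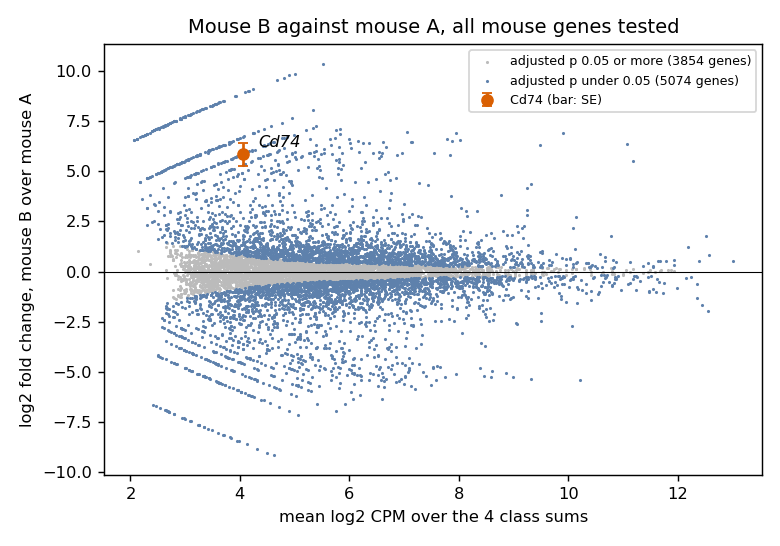
Log2 fold change of mouse B over mouse A (y axis) against the mean log2 CPM over the 4 class sums (x axis) for the 8928 mouse genes tested; blue points have an adjusted p under 0.05 and the orange point with its SE bar is Cd74. Cd74 lies at 5.85, among genes called higher in mouse B; genes called lower lie below 0.

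The other members are described by their UMIs, since none passed the filter on low counts. H2-Aa, the alpha chain of the classical I-A molecule, gave 1 and 6 UMIs in mouse B (2.17 and 2.57 CPM at 150 and 300 cells per µl) and 0 in mouse A in both libraries. Summed over libraries, the H2-Aa level in mouse B was 3.16 times the limit that 3 counts give in mouse A. This ratio leaves out the counting error of the 7 UMIs in mouse B and is not a lower bound. Outside the mouse cells, H2-Aa gave 1 UMI in human cells and 2 in mouse-rich low-UMI barcodes, all at 300 cells per µl. Its share of cells at 300 cells per µl was 2.03% in mouse B and 0.31% in human cells, with a median depth of 6588 and 3714 UMIs.

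H2-DMa encodes the alpha chain of H2-DM, the molecule that catalyses peptide loading. It gave 2 and 11 UMIs in mouse B (4.34 and 4.71 CPM) and 0 and 4 UMIs in mouse A, the latter being 1.26 CPM. At 300 cells per µl the level was higher in mouse B, whereas at 150 cells per µl the 0 in mouse A allows up to 5.0 CPM, above the mouse B level. All 17 UMIs of H2-DMa lay in mouse cells, each in a cell of its own. Over both libraries the ratio of mouse B to mouse A was 4.39 (exact conditional interval 1.36 to 18.5), a range that reflects counting error and not the spread between libraries.

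H2-Eb1, the beta chain of the classical I-E molecule, had no such order. It gave 1 and 10 UMIs in mouse A (1.67 and 3.14 CPM) and 2 and 4 UMIs in mouse B (4.34 and 1.71 CPM), so the higher group differed between the libraries. The summed ratio of mouse B to mouse A was 0.74 with an interval of 0.22 to 2.18, which includes no difference. The 10 UMIs in mouse A at 300 cells per µl came from 9 of 389 cells, with no cell above 2.

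Ciita, the transactivator, was detected at 300 cells per µl only, as 2 UMIs in 1 mouse A cell of 13906 UMIs. That cell had 0 UMIs of Cd74 and of H2-Eb1. H2-Ab1, which encodes the beta chain that pairs with the H2-Aa product, was counted as 0 UMIs, which allows up to 6.51 and 1.28 CPM in mouse B and 5.0 and 0.94 CPM in mouse A. The H2-Aa level in mouse B at 150 cells per µl, 2.17 CPM, was below the limit for H2-Ab1 in the same sum. At 300 cells per µl it was 2.57 CPM, with an interval of 0.94 to 5.59 CPM that includes the H2-Ab1 limit of 1.28 CPM. The levels of these genes were thus not separable in either library. The H2-Ab1 limits hold only where a gene with no row had 0 UMIs.

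When every mouse gene with at least 1 UMI was tested by edgeR without the filter, 39.2% of 14219 genes were called. None of the sparse members passed. The adjusted p was 0.094 for H2-Aa, 0.11 for H2-DMa, 0.82 for H2-Eb1 and 0.63 for Ciita, and the unadjusted p was under 0.05 for H2-Aa (0.041) and H2-DMa (0.049). In order of level in mouse B, Cd74 lay above H2-DMa, H2-Aa and H2-Eb1 with intervals that did not overlap theirs (35.4 CPM over both libraries, 28.8 to 43.1, against 4.65, 2.5 and 2.15 CPM), and the last 3 were not separable by their intervals. As only 3′ ends are counted, these levels were not divided by transcript length, and how well each gene's 3′ end was captured is unknown.

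**Figure D2:**
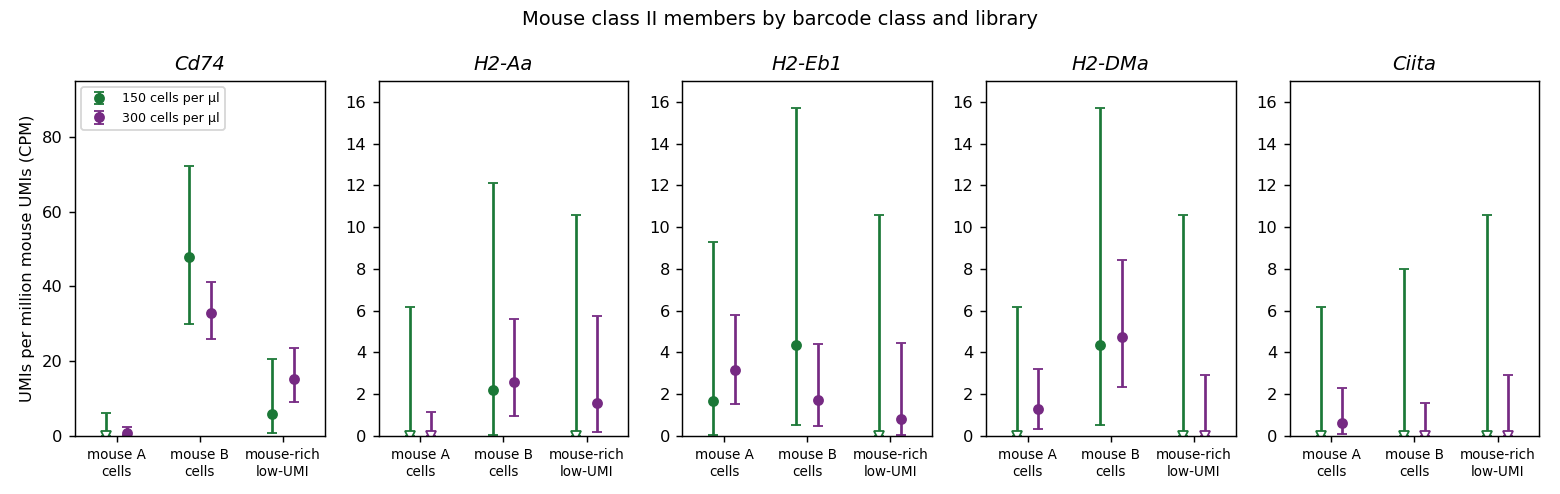
Level of the 5 mouse members with a row in the tables, as UMIs per 1000000 mouse UMIs (CPM, y axis; the Cd74 panel has its own range), in mouse A cells, mouse B cells and mouse-rich low-UMI barcodes (x axis) of the library at 150 (green) and 300 (purple) cells per µl; bars are 95% Poisson intervals and open triangles are counts of 0. Cd74 stands at 47.8 and 33.0 CPM in mouse B and near 0 in mouse A, whereas no other member exceeds 4.71 CPM in these classes.

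The position of the Cd74-containing cells was then examined on the component that separated the mouse cells. Of 59 mouse cells with a Cd74 UMI, 57 were mouse B cells. The remaining 2 were mouse A cells of 9842 and 5243 UMIs with 1 Cd74 UMI each. They lay at −7.54 and −6.47 on the component, near the mouse A median of −7.30, and the lowest mouse B cell lay at 1.17. They were thus not cells near the border between the groups.

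**Figure D3:**
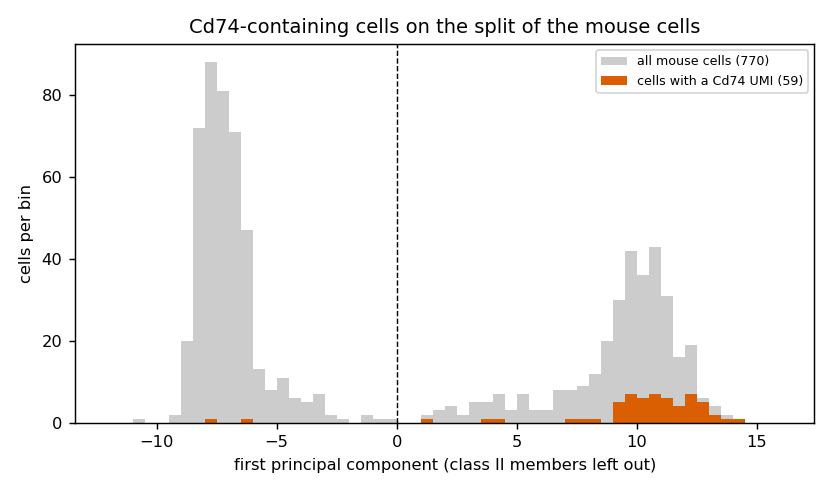
Number of mouse cells per bin (y axis) along the first principal component (x axis), for all 770 mouse cells (grey) and for the 59 with a Cd74 UMI (orange); the dashed line at 0 separates mouse A (left) from mouse B (right). All but 2 of the Cd74-containing cells lie to the right of the line.

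Within mouse B, Cd74 was found in a minority of cells. At 150 cells per µl, 11 of 35 cells had a UMI (31.4%, exact binomial interval 16.9 to 49.3). At the higher concentration 46 of 296 cells did (15.5%, 11.6 to 20.2). The shares in mouse A were 0 of 50 cells, which allows up to 6.0%, and 2 of 389 cells (0.51%). Human cells, which measure the background, had a mouse Cd74 UMI in 0 of 87 and 1 of 318 cells (0.31%), at a median depth of 6383 and 3714 UMIs. Human cells held 10594 and 49990 mouse UMIs in all, so their mouse background is thinly sampled.

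These shares were set beside depth. The median depth of mouse B cells with a Cd74 UMI was 17059 at 150 cells per µl, against 9923 in those without, and at 300 cells per µl it was 8985 against 5911. After each cell was thinned to 2000 UMIs, which left out 5 and 62 shallower mouse B cells, the expected shares were 6.32% over 30 cells and 6.27% over 234 cells. Among unthinned cells of 10000 or more UMIs, however, the share was 47.8% (11 of 23, 26.8 to 69.4) at the lower and 23.6% (21 of 89, 15.2 to 33.8) at the higher concentration. Thinned mouse A cells had expected shares of 0% and 0.17%.

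**Figure D4:**
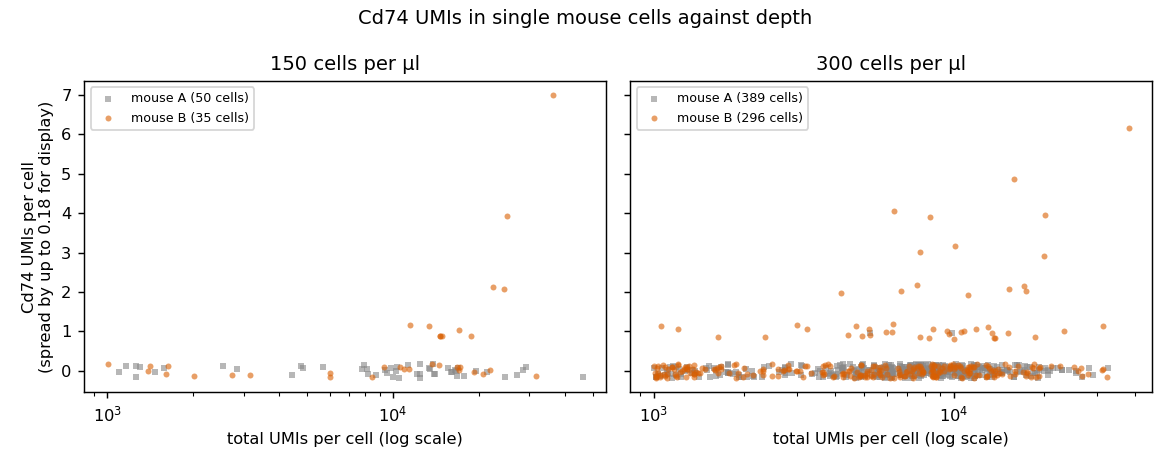
Cd74 UMIs per cell (y axis, points spread vertically by up to 0.18) against total UMIs per cell (x axis, log scale) in mouse A (grey squares) and mouse B cells (orange circles) of each library. Cells with 2 or more Cd74 UMIs, 4 at 150 and 15 at 300 cells per µl, are all mouse B cells, and 24 of 35 and 250 of 296 mouse B cells have 0.

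Within the library with more mouse B cells the share was higher in deeper cells while the level was not. At 300 cells per µl, a Cd74 UMI was found in 4 of 71 mouse B cells under 2500 UMIs (5.63%), in 6 of 46 cells from 2500 to under 5000 (13.0%), in 15 of 90 cells from 5000 to under 10000 (16.7%) and in 21 of 89 cells of 10000 or more (23.6%). The summed level in the same bins was 39.9, 40.1, 38.1 and 29.2 CPM, with intervals that all overlapped. At 150 cells per µl, all 22 Cd74 UMIs came from the 23 cells of 10000 or more UMIs, at 52.8 CPM (33.1 to 80.0). The 12 shallower cells there gave 0 UMIs, and each of their bins allowed a level above that.

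**Figure D5:**
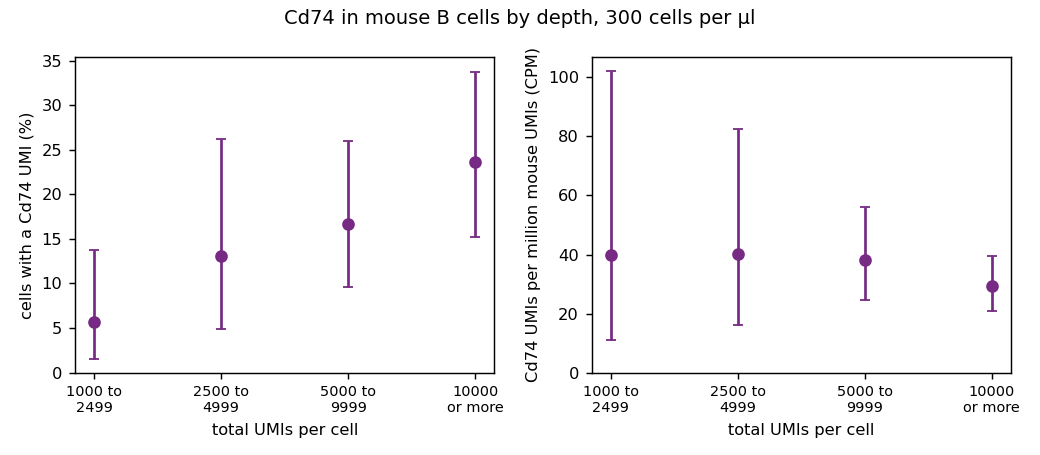
Share of mouse B cells with a Cd74 UMI (left, percent, exact binomial 95% intervals) and Cd74 level (right, CPM, 95% Poisson intervals) by total UMIs per cell in the library at 300 cells per µl. The share goes from 5.63% to 23.6% while the level stays between 29.2 and 40.1 CPM with overlapping intervals.

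A few cells held much of the Cd74 signal. At 150 cells per µl a single mouse B cell of 36270 UMIs had 7 Cd74 UMIs, 31.8% of those in the group. At 300 cells per µl the highest cell, of 38180 UMIs, had 6, or 7.79%. Each was the deepest mouse B cell of its library, with 1.93 and 1.57 Cd74 UMIs per 10000 UMIs. Cells with 2 or more Cd74 UMIs numbered 4 of 35 and 15 of 296 and carried 68.2% and 59.7% of the Cd74 UMIs of mouse B. The part of depth and of counting error in this concentration was not tested. Without the highest cell of each library, the edgeR log2 fold change of Cd74 was 5.69 with an adjusted p of 3.23e-20.

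Between the loading concentrations, the ratio of the Cd74 level in mouse B, 300 over 150 cells per µl, was 0.69 (exact conditional interval 0.43 to 1.16). With 1 library per concentration this was not tested, and the interval includes no difference. The direction depended on how cells were weighted. The mean of the per-cell levels was 28.7 CPM at 150 and 36.3 CPM at 300 cells per µl, a log2 ratio of 0.34 in place of −0.53. For H2-Aa and H2-DMa in mouse B the corresponding summed log2 ratios were 0.24 and 0.12, each resting on 2 UMIs or fewer at 150 cells per µl.

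Members were also found together in single cells. In mouse B, 258 cells had none of the 5 detected members, 65 had 1, 6 had 2 and 2 had 3. In mouse A, 422 cells had none, 17 had 1 and 0 had 2 or more. All 8 mouse B cells with 2 or more members contained Cd74, which was also the member detected in the most mouse B cells. The depth of these 8 cells ran from 2356 to 24450 UMIs with a median of 13345, against 7095 in all mouse B cells.

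H2-DMa was accompanied by Cd74 in 4 of its 13 mouse B cells, H2-Aa in 3 of 7 and H2-Eb1 in 3 of 6. Over all mouse B cells, 57 of 331 (17.2%) held Cd74, and 32 of 112 (28.6%) did among those of 10000 or more UMIs. Whether the overlaps exceed these shares was not tested. H2-Aa and H2-Eb1, an alpha and a beta chain of different class II molecules, shared 2 cells, both of which also held Cd74. In mouse A, the 10 cells with H2-Eb1 had no other member. Cells with a member other than Cd74 made up 7.25% of mouse B (24 of 331, interval 4.70 to 10.6) and 3.42% of mouse A (15 of 439, 1.92 to 5.57), at a median depth of 7095 and 7755 UMIs. The part of depth in these counts was not tested.

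Low-UMI barcodes carried Cd74 too. Mouse-rich low-UMI barcodes gave 2 Cd74 UMIs at 150 cells per µl (5.72 CPM, 0.69 to 20.7) and 19 at 300 cells per µl (15.1 CPM, 9.08 to 23.6), never more than 1 per barcode. The mouse B level was 8.35 times (2.05 to 73.2) and 2.19 times (1.31 to 3.83) as high. Against all mouse cells together, at 20.7 and 14.3 CPM, the low-UMI level was 0.28 times (0.031 to 1.12) and 1.05 times (0.60 to 1.75) as high, and both intervals include no difference. The other members gave 3 UMIs in these barcodes, all at 300 cells per µl, of which 2 were H2-Aa and 1 was H2-Eb1.

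No transcript of the human members was counted in any barcode. In human cells, 0 UMIs of HLA-DRA or of CD74 among 616525 and 1325144 human UMIs allow up to 4.87 and 2.26 CPM for each gene, and 0 of 405 cells allows a share of cells with a UMI of up to 0.74%. HLA-DRA is the alpha chain shared by all HLA-DR molecules, and CD74 is the human invariant chain. A human gene at the level that mouse Cd74 had in mouse B would have given 29.5 and 43.7 UMIs in these cells. These limits hold where a gene with no row had 0 UMIs.

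The human-rich low-UMI barcodes were too shallow to show such a level reliably. They held 20966 and 40234 human UMIs at a median of 528 and 619 UMIs per barcode, so 0 UMIs allow up to 143 and 74.6 CPM for HLA-DRA and for CD74. A gene at the mouse B level of Cd74 would have given 1.00 and 1.33 UMIs there. Over both libraries, 0 of 133 such barcodes allows a share of up to 2.26%. A level of either gene below these limits could therefore be missed in the low-UMI barcodes, and human cells and low-UMI barcodes could not be compared for these genes. Mouse Cd74 was also at 0 in the human-rich low-UMI barcodes, among 6477 and 12760 mouse UMIs.

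The genes most like Cd74 were sought over 6 class sums, those of mouse A, mouse B and mouse-rich low-UMI barcodes in both libraries, by Pearson's r of log2(CPM + 10). Among 9010 mouse genes with at least 50 UMIs, the highest were ENSMUSG00000031517 (r = 0.998), with 20 and 72 UMIs in mouse B and 0 and 0 in mouse A, and ENSMUSG00000038421 (r = 0.998), with 22 and 90 in mouse B and 0 and 2 in mouse A. Their UMIs in mouse-rich low-UMI barcodes were 2 and 20 for the former and 2 and 19 for the latter, beside 2 and 19 for Cd74. The sums share libraries and depth, and these values describe a pattern over 6 points. For H2-Eb1, whose sums ran only from 0 to 4.34 CPM, the highest was ENSMUSG00000021807 (r = 0.988), which rests on 18 UMIs of H2-Eb1.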

How the data were processed

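The deposited values are raw UMI counts of each gene in each cell barcode, 1 table for a library. According to the study's methods and the submitters' processing notes, the authors downsampled the reads and used Drop-seq tools, with STAR 2.4.2a as aligner, on a joint hg19 and mm10 reference. Whether the deposited counts come from the downsampled reads is not given in the sources used here.

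The members and lists were chosen with earlier results of these data known. Symbols of the members follow the rule that chose them. None of the 29259 identifiers (0) matched the gene table at hand, so the marker and pathway lists and promoter sequences were not used, only the 8 members were left out of the principal components, and mouse A was defined as the larger group in place of the planned naming by markers. No doublet caller was run; mixed barcodes were set aside.

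CPM is per 1000000 UMIs of the species. Mouse cells were log-normalized to a total of 10000 each, and the 2000 most variable genes seen in at least 10 cells were used (scanpy 1.11.5). UMIs were summed per library and group and tested with edgeR 4.0.16 (R 4.3.3; TMM, filterByExpr, Benjamini-Hochberg adjustment at 0.05). On simulated sums for mouse B against mouse A (8928 genes, 200 changed by 4-fold), 95% of changed genes were recovered with 13 false calls. The simulation gave every gene the same extra spread and changed few genes, whereas 56.8% were called in the data. It therefore does not measure the error rate of the calls in the data. The planned tests of human-rich low-UMI barcodes had no member to test. The 8 members were always named; beyond them, the genes with the highest likeness to the 2 mouse members with the most UMIs were to be named, at most 2 each without symbols. Intervals are exact at 95%.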

Additional observations from a re-analysis of the deposited data

Results flagged for a closer look

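H2-Eb1 moved in opposite directions between the libraries in the mouse groups. From 150 to 300 cells per µl its level had a log2 ratio of 0.92 in mouse A (1 and 10 UMIs, exact conditional interval −1.90 to 6.35) and of −1.34 in mouse B (2 and 4 UMIs, −4.15 to 2.12). Each interval includes 0, and the difference between the groups was not tested.

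Cd74 was also seen in barcodes outside the comparisons above. Mixed barcodes, with at least 1000 UMIs and under 90% of either species, gave 4 Cd74 UMIs, 1 of them at 150 and 3 at 300 cells per µl, each in a barcode of its own. They numbered 18 and 121 and held 16874 and 127219 mouse UMIs.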

How the results depend on the processing

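The Cd74 difference between mouse B and mouse A kept its direction and its call under all 10 alternatives with a test. Its log2 fold change was 5.69 to 6.19, with an adjusted p of 3.26e-25 to 7.14e-05. These alternatives drew on the same 2 libraries and are not independent support. Except for the fit without the filter on low counts, they kept that filter. The split by 2-means moved 0 cells to another group, so it repeated the main values. Without the library as a replicate block, 3501 genes were called and the value for Cd74 was 5.97 (adjusted p = 2.58e-06). The number of genes called by edgeR, 5074, fell to 1939 with DESeq2 1.42.0, and the cause was not tested. The remaining counts ran from 3501 to 5567. Without the library at 150 cells per µl, the Cd74 log2 ratio was 5.71 with no test. From the library at 150 cells per µl alone, only the Cd74 level in mouse B as 9.55 times the limit in mouse A could be given. This ratio leaves out counting error in mouse B and is not a lower bound. The H2-Eb1 log2 ratio of −0.44 ranged from −0.88 to 1.38 when either library was left out. The H2-DMa log2 ratio of 2.14 became 1.91 without the library at 150 cells per µl.

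Thinning to 2000 UMIs lowered the Cd74 shares of 31.4% and 15.5% in mouse B to 6.32% and 6.27%, by its construction. Weighting cells equally turned the log2 ratio of Cd74 between 300 and 150 cells per µl from −0.53 to 0.34. In all, 46 of 56 recomputed values stayed on their side of the threshold and within their error. Splits by 2-means, without 9 cells near the border, and without the highest Cd74 cells were chosen after seeing the data. The split of mouse cells by markers and the alternatives for human genes were not run, since no symbols were matched and no human member had a count. Few UMIs were counted for Cd74 in single cells, and for the other members also in the summed classes. The part of depth in this was not tested.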
